A study of Homo sapiens with 30 samples.

Results

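The genes described here are the translation initiation and elongation factors, taken as every gene whose symbol starts with EIF or EEF and a digit, without the EIF2AK kinases, pseudogenes, readthrough and antisense genes, and listed in all 3 count tables. There were 61 such genes, of 60612 genes in the RBPMS knockout table and 56303 genes in each of the ANKRD10 overexpression and ANKRD10 knockdown tables. All 61 were placed by the tables on the chromosome where the GRCh38 annotation has them. The RNA came from 5637, a human bladder carcinoma cell line, with 3 libraries in each of 10 groups. The groups KO1 and KO2 carried a knockout of RBPMS, an RNA-binding protein that takes part in splicing, and each had its own control group, WT1 or WT2. The knockouts came from single-clone expansion, so a knockout group stands for the descendants of few cells, and the controls are called wild type by the labels and sgCtrl in the figures of the study. ANKRD10-1 and ANKRD10-2 are the longer and the shorter splice form of ANKRD10, an ankyrin repeat protein. The overexpression experiment had the groups Vector, ANKRD10-1 and ANKRD10-2, and the knockdown experiment had the siRNA groups siNC, siANKRD10-1 and siANKRD10-2. According to the text of the study, ANKRD10-1 was overexpressed and ANKRD10-2 was knocked down in cells that already lacked RBPMS, while the labels name only 5637, so the background of those libraries is not settled. Nothing states that the 3 libraries of a group came from separate cultures, and the p-values may then measure technical spread alone.

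Initiation begins when eIF2 brings the initiator tRNA to the small ribosomal subunit, helped by eIF1, eIF1A, eIF3 and eIF5, while eIF4E, eIF4G and the helicase eIF4A bind the capped end of the mRNA. eIF5B joins the large subunit, eIF6 keeps free large subunits apart, and eEF1A, eEF1B and eEF2 then carry elongation, with eIF5A easing stretches at which ribosomes stall. Several of these genes are textbook targets of the transcription factor MYC, which binds the E-box sequence CACGTG, and the study asks how RBPMS and the ANKRD10 splice forms bear on MYC targets.

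Because the question concerns MYC, the promoters of the members were searched for CACGTG, a sequence that reads the same on both strands. RefSeq windows from 250 bases before to 50 bases after the gene start (GRCh38.p14) were at hand for 49 of the 61 members, and 12 of them (24.5%) held the motif, against 2030 of 27305 promoters (7.43%). The 27305 promoters were taken whatever the level of their genes in these cells. No share was computed for genes as abundant as the members, so the part of gene level in this excess was not tested. The 7 genes below are shown because they hold the motif and were higher in both knockouts (EIF4G1 and EIF5A2), lower with siANKRD10-2 (EIF1B, EIF4E, EIF4A3 and EEF2K) or both (EIF4H). The other holders, EIF2B3, EIF3F, EIF3K, EIF4B and EIF4EBP3, met neither condition and are not shown. Apart from the holders higher in both knockouts, EIF2B3 and EIF1B rose in KO1, EIF3K fell in KO1, and EIF4B and EEF2K fell in KO2. EIF4A3 was also higher in every KO2 library (236, 233 and 246 CPM) than in WT2 (207, 220 and 209 CPM). The choice used the changes, so the lines shown cannot tell how motif and change go together. Each line gives 30 bases on the strand of the gene, with the motif in capitals.
EIF1B, chr3:40309641-40309670, plus strand, motif 54 bases before the start: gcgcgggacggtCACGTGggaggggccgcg
EIF5A2, chr3:170908807-170908836, minus strand, motif 187 bases before the start: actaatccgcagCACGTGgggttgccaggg
EIF4G1, chr3:184314450-184314479, plus strand, motif 144 bases before the start: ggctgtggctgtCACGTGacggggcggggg
EIF4E, chr4:98929188-98929217, minus strand, motif 72 bases before the start: ggacatatccgtCACGTGgccagaagctgg
EIF4H, chr7:74174145-74174174, plus strand, motif 199 bases before the start: acgccgccgcacCACGTGggctgcagagcg
EEF2K, chr16:22206207-22206236, plus strand, motif 59 bases before the start: cctgggggcggcCACGTGagcgccacgccg
EIF4A3, chr17:80147232-80147261, minus strand, motif 121 bases before the start: ccagttccctttCACGTGacgaagagtgcc
A second motif lies 162 bases before the start of EIF5A2, 67 bases before that of EIF4G1 and 225 bases before that of EIF4E. Among the members that were higher in both knockouts, 3 of 17 promoters held it (17.6%). Of the 5 members that were higher in both knockouts and with ANKRD10-2 and lower with siANKRD10-2, 0 of 5 did. A match is a description of the window and not a binding site, and no match says only that these letters are not in it.

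Total counts per library were 44593108 to 69723937 in the knockout table, 31736779 to 47493499 in the overexpression table and 28511029 to 32784584 in the knockdown table. Levels are given in CPM, the usual depth-scaled count unit, after TMM scaling over the libraries of a table, and the tables are never compared with each other by a test. RBPMS stood at 14.3 to 15.2 CPM in KO1 against 39.0 to 42.2 CPM in WT1 and at 19.0 to 21.3 CPM in KO2 against 42.4 to 44.2 CPM in WT2. ANKRD10, summed over its splice forms, was higher with either overexpression, by 0.67 and 0.41 on the log2 scale for ANKRD10-1 and ANKRD10-2, and fell by 0.24 and 0.25 with siANKRD10-1 and siANKRD10-2. Summed ANKRD10 also fell in both knockouts, and more than with either siRNA. Its log2 change was -1.175 in KO1 (edgeR adjusted p = 6.55e-08) and -0.761 in KO2 (edgeR adjusted p = 3.98e-08). RBPMS ranged from 3.57 to 6.29 CPM over the 9 overexpression libraries and its difference between ANKRD10-1 and Vector did not pass the test (log2 -0.19, edgeR adjusted p = 0.471). Over the 9 knockdown libraries RBPMS ranged from 4.53 to 5.88 CPM, and its log2 difference between siANKRD10-2 and siNC was 0.03 (SE 0.14, edgeR adjusted p = 0.894). The 9 epithelial or urothelial marker genes summed to 2893 to 5748 CPM in every library, against 28.7 to 59.7 CPM for 6 fibroblast genes and 1.39 to 25.2 CPM for 6 blood or endothelial genes, of which up to 3 were at 0 throughout a table. In such bulk RNA, fewer cells of a kind and less RNA per cell cannot be told apart.

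The factors were among the more abundant mRNAs, with a median of 138 CPM in the KO1 comparison where all tested genes had a median of 15.6 CPM. Per kilobase of exon, the elongation factors led in WT1, with EEF1A1 at 983 ± 78.0 CPM per kilobase (SD, n = 3), EEF1G at 499 ± 26.1 and EEF2 at 421 ± 12.6. EIF4G2 and EIF4H followed at 186 ± 0.786 and 176 ± 6.61 CPM per kilobase, while EIF5A (127 ± 0.0951) and EIF1 (125 ± 0.430) lay close together. At the low end EIF5A2, the second gene for eIF5A, had 1.68 ± 0.235 CPM per kilobase in WT1, and EEF1A2, the form of eEF1A best known from muscle and neurons, had 1.31 ± 0.297. EIF1AY and EIF4E1B had too few counts to be tested in any comparison, EIF4EBP3 was not tested in the knockouts, and EIF5AL1 was not tested in the overexpression comparisons. Reads of EEF1A1, EIF4A1 and EIF4B may be split with 39, 13 and 9 pseudogene rows of the tables, and EIF4A1 also has a readthrough row with SENP3. EIF3C and EIF3CL are near-identical copies, and EIF3CL had 3.76 ± 0.466 CPM in WT1 but 741 ± 21.5 CPM in Vector, so the values of this pair are uncertain.

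**Figure D1:**
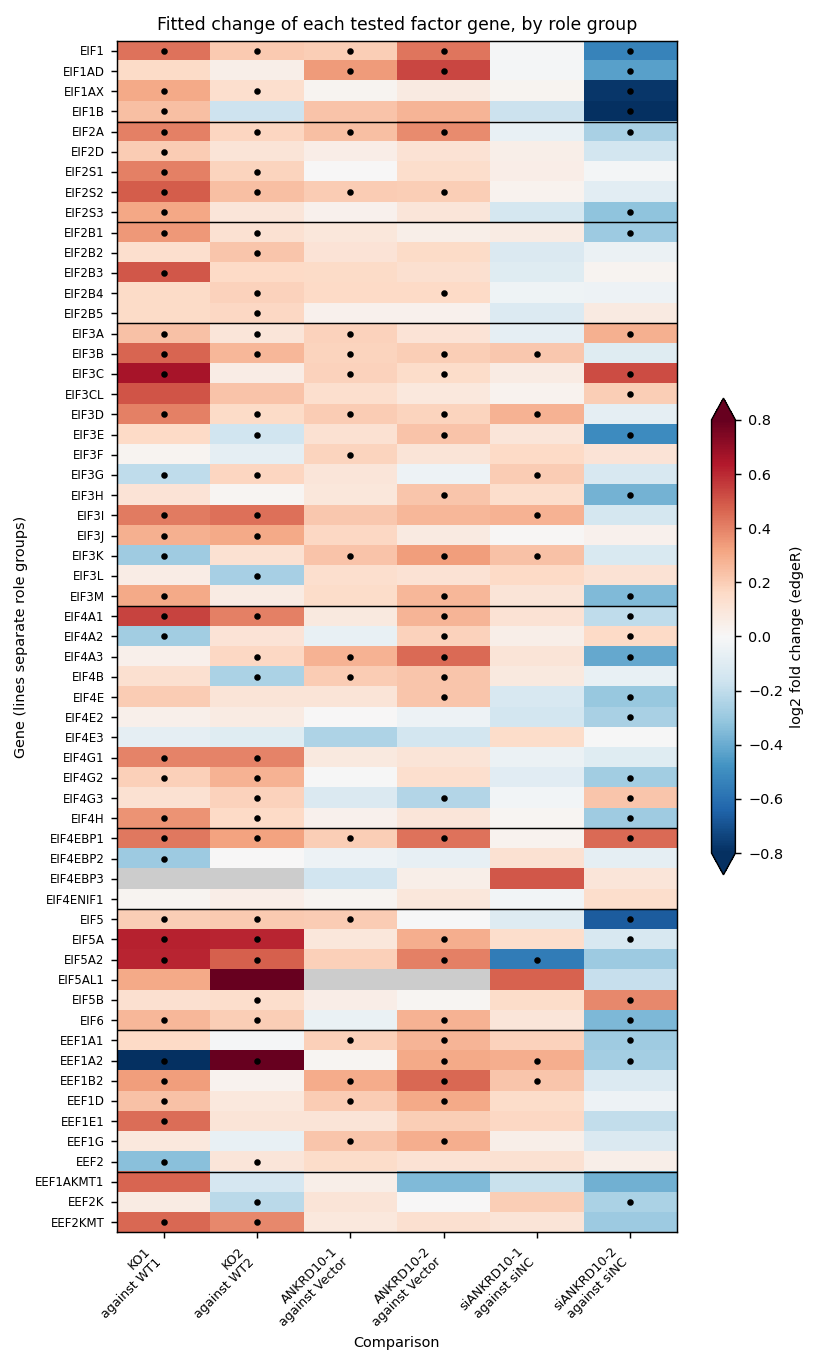
Fitted log2 fold change (colour, from -0.8 to 0.8, with stronger changes shown in the end colours) of each factor gene that was tested (rows, lines separate role groups) in the 6 comparisons with a control group (columns). Black dots mark genes with an edgeR adjusted p under 0.05, and grey cells were not tested. Among the cells with dots, red prevails in the knockout and overexpression columns, and blue in the siANKRD10-2 column.

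In the RBPMS knockouts more factor genes rose than fell. Of 58 tested members, 30 were higher and 6 lower in KO1 than in WT1, with a median log2 fold change of 0.23 against 0.00 for all 17865 tested genes, of which 17.9% were higher and 18.2% lower. In KO2 against WT2, 30 members were higher and 4 lower, with a median of 0.14, where 19.3% of 18267 genes were higher and 19.2% lower. Among the genes with at least 32 CPM, 30.6% were higher and 21.3% lower in KO1, and there 25 of the 46 members were higher and 5 lower. The same share in KO2 was 34.5% higher and 22.1% lower, with 26 of 45 members higher and 4 lower. The changes were small, since 4 called members in KO1 (EIF3C, EIF5A, EIF5A2 and EEF1A2) and 2 in KO2 (EIF5A and EEF1A2) changed by 1.5-fold or more. 21 of 58 members were higher in both knockouts, as were 9.47% of the 17359 genes tested in both, and 3 members, EEF1A2, EEF2 and EIF3G, were lower in KO1 and higher in KO2, as were 2.44% of these genes. These shares over both knockouts cover genes at all levels and were not computed at 32 CPM or more.

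EIF5A had one of the largest and most even rises. Its level was 357, 357 and 357 CPM in WT1 and 567, 518 and 559 CPM in KO1. In WT2 it was 359.7, 362 and 343 CPM and in KO2 544, 543 and 541 CPM. No knockout library came near a control library. The fitted change was 1.53-fold in KO1 (log2 0.62, SE 0.05, edgeR adjusted p = 2.98e-06) and 1.52-fold in KO2 (log2 0.61, SE 0.03, edgeR adjusted p = 3.08e-08), while the median change of the other tested genes within 5 Mb on chromosome 17 was 0.08 and 0.02. EIF5A2 rose as well, from 8.39, 8.86 and 10.9 CPM in WT1 to 14.1, 16.1 and 12.9 CPM in KO1, and from 9.73, 9.32 and 10.3 CPM in WT2 to 13.5, 12.9 and 14.7 CPM in KO2. Its log2 changes were 0.61 (SE 0.13) and 0.48 (SE 0.10). Of the other genes of the joining group, EIF5, the GTPase-activating partner of eIF2, rose by 0.19 and 0.21 on the log2 scale and EIF6 by 0.27 and 0.19. EIF5B rose in KO2 (log2 0.14) and had a log2 value of 0.13 in KO1 that did not pass, and its KO2 call was lost with no filter on low counts, with all 6 WT libraries as control and without KO2 replicate 2 or 3 or WT2 replicate 1 or 3.

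The factors eIF1 and eIF1A keep the scanning ribosome open until the start codon. In their group, which by symbol also holds EIF1AD, 3 of 4 tested members were higher in KO1 and 2 in KO2. EIF1 had 451, 451 and 454 CPM in WT1 and 622, 586 and 626 CPM in KO1. In WT2 it had 538, 540.2 and 514 CPM and in KO2 605, 619 and 626 CPM. The WT2 libraries lay above the WT1 libraries, and the KO1 change (log2 0.43, SE 0.04) exceeded the KO2 change (log2 0.21, SE 0.03) by 0.22 (edgeR adjusted p = 0.00424). EIF1AX rose by 0.30 and 0.13 on the log2 scale, and the smaller call in KO2 was lost without KO2 replicate 2 or WT2 replicate 1 or 3. EIF1B was called in KO1 at 0.24 and had a log2 value of -0.16 in KO2 that did not pass. The EIF1B call in KO1 was lost without KO1 replicate 1 or 3 or WT1 replicate 2 or 3, with no filter, with all libraries in 1 fit and with all 6 WT libraries as control.

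Within the cap-binding group, 4 of 11 tested members were higher and 1 lower in KO1, and 6 were higher and 1 lower in KO2. EIF4A1, the main helicase of the cap complex, stood at 552, 463 and 543 CPM in WT1 and 713, 769.6 and 785 CPM in KO1. In WT2 it had 487, 527 and 533 CPM and in KO2 600.2, 719.8 and 735 CPM. The groups did not overlap in either pair, and the log2 changes were 0.54 (SE 0.07) and 0.41 (SE 0.06). The scaffold gene EIF4G1 rose from 477, 469.7 and 452 CPM to 632, 596 and 616 CPM in KO1, and from 463, 457 and 454 CPM to 612, 604 and 596 CPM in KO2. Its log2 changes of 0.40 (SE 0.04) and 0.39 (SE 0.03) differed by 0.00 (95% interval -0.10 to 0.10). EIF4A2, the paralogue of EIF4A1, went the other way in KO1, from 170.4, 160.1 and 176 CPM to 139, 149 and 129.5 CPM (log2 -0.28, SE 0.06), and its log2 change in KO2 was 0.11 and did not pass the test. The cap-binding protein gene EIF4E was not called in KO1 (log2 0.20, edgeR adjusted p = 0.0532) or in KO2 (log2 0.10, edgeR adjusted p = 0.0777). EIF4G2, a relative of eIF4G that lacks the eIF4E-binding part, rose by 0.19 and 0.28 on the log2 scale, and the helicase helper EIF4H by 0.36 and 0.16. EIF4B, another helper of the helicase, fell in KO2, from 629, 625 and 641 CPM to 525, 528 and 542 CPM, and had a log2 value of 0.13 in KO1 that did not pass.

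**Figure D2:**
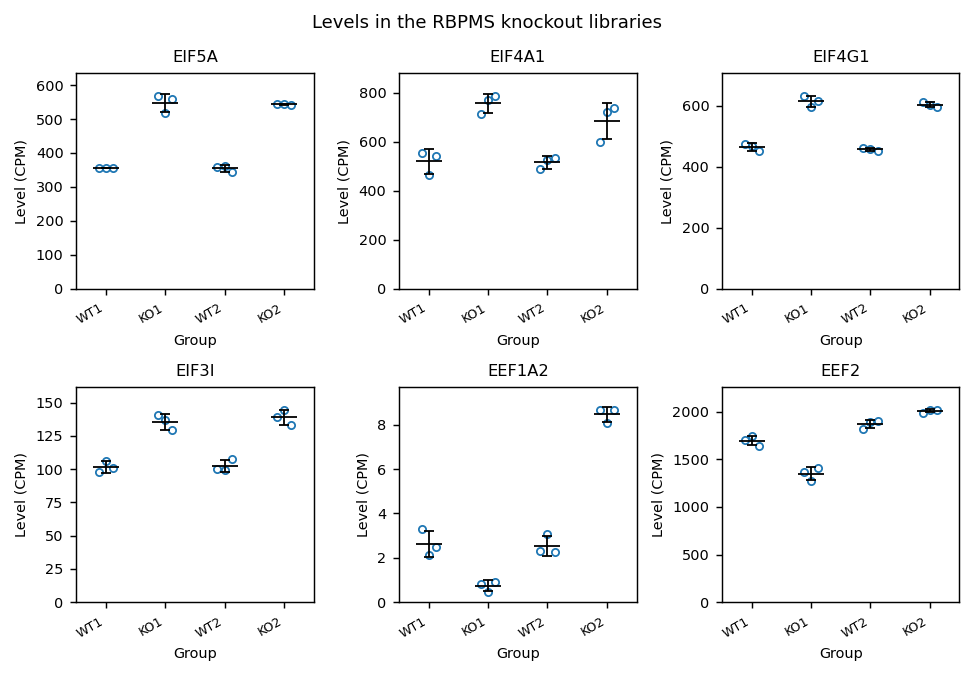
Levels in CPM (vertical axes, from 0) of 6 factor genes in the 4 groups of the knockout table. Circles are libraries, and bars give the mean ± SD of 3 libraries. EIF5A, EIF4A1, EIF4G1 and EIF3I were higher in both knockouts than in their controls, and EEF1A2 and EEF2 were lower in KO1 and higher in KO2.

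Among the eIF4E-binding proteins, which hold eIF4E away from eIF4G, EIF4EBP1 rose in both knockouts. It had 32.3, 31.7 and 29.3 CPM in WT1 and 42.0, 38.9 and 44.1 CPM in KO1 (log2 0.42, SE 0.07). Its KO2 value was log2 0.32 (SE 0.07), from 27.8, 29.2 and 32.7 CPM to 37.4, 39.6 and 35.3 CPM. EIF4EBP2 fell in KO1, from 228, 243 and 238 CPM to 199, 189 and 192 CPM, while its log2 change in KO2 was 0.00 (95% interval -0.07 to 0.08). The test of the difference between the knockouts passed for EIF4EBP2 (log2 -0.30, edgeR adjusted p = 0.000823).

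All 5 members that carry the initiator tRNA, the eIF2 group, were higher in KO1, and 3 of 5 in KO2. EIF2S1 and EIF2S2, the alpha and beta subunits of eIF2, rose by 0.41 and 0.48 on the log2 scale in KO1 and by 0.18 and 0.24 in KO2. EIF2S1 had 178, 185 and 191 CPM in WT1 and 230.1, 251 and 253 CPM in KO1. EIF2A, an alternative initiator tRNA carrier, rose from 107, 113 and 116 CPM to 142, 154 and 148 CPM in KO1 and from 106, 114 and 115 CPM to 126, 124 and 129 CPM in KO2. The KO1 rise was the larger for 4 of these 5 genes by the test of the difference. EIF2S3, for the gamma subunit, rose in KO1 from 319, 295 and 321 CPM to 378, 398 and 384 CPM (log2 0.31) and had a log2 value of 0.09 in KO2 that did not pass. EIF2D, which can place tRNA on the small subunit without eIF2, rose in KO1 by 0.20. Of the 5 genes for eIF2B, which recharges eIF2 with GTP, 2 were higher in KO1 and 4 in KO2, with EIF2B1 called in both. EIF2B3 rose in KO1 by 0.50 on the log2 scale (SE 0.10), and EIF2B2, EIF2B4 and EIF2B5 rose in KO2 by 0.22, 0.19 and 0.16.

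The eIF3 group, the scaffold of the small subunit complex, had 14 tested members, with 7 higher and 2 lower in KO1 and 6 higher and 2 lower in KO2. EIF3I was 97.8, 106 and 101 CPM in WT1 and 141, 137 and 129 CPM in KO1. It was 100.3, 99.2 and 107 CPM in WT2 and 139, 145 and 133 CPM in KO2. The rises of 0.41 and 0.44 on the log2 scale differed by -0.03 (95% interval -0.18 to 0.12). EIF3B rose by 0.47 and 0.27 and EIF3D by 0.40 and 0.16, each more in KO1 than in KO2 by the test of the difference. EIF3J, a loosely bound subunit, rose by 0.28 and 0.30 and EIF3A by 0.23 and 0.10. EIF3L had 261, 269 and 272 CPM in WT2 and 215, 228 and 225 CPM in KO2. EIF3L and EIF3E fell in KO2, by 0.26 and 0.16 on the log2 scale, and had log2 values of 0.06 and 0.16 in KO1 that did not pass. The EIF3E call in KO2 was lost with all libraries of the table in 1 fit and with all 6 WT libraries as control. EIF3C rose in KO1 from 25.3, 26.3 and 25.9 CPM to 37.8, 50.3 and 34.7 CPM, with the highest KO1 library well above the others, and its near-identical copy leaves this value uncertain.

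EEF1A2 showed the widest split. Its counts were low, at 114 to 171 per library in WT1 and 20 to 55 in KO1. The level was 3.28, 2.11 and 2.49 CPM in WT1 and 0.830, 0.456 and 0.926 CPM in KO1, a fitted log2 change of -1.82 (SE 0.32, edgeR adjusted p = 0.000993). In WT2 it was 2.32, 3.07 and 2.26 CPM and in KO2 8.68, 8.09 and 8.67 CPM, a log2 change of 1.73 (SE 0.16, edgeR adjusted p = 3.55e-06). The control groups overlapped each other, the KO1 libraries lay below them all and the KO2 libraries above them all. The difference between the knockouts was -3.55 on the log2 scale (SE 0.34, edgeR adjusted p = 1.15e-06). The other tested genes within 5 Mb of EEF1A2 on chromosome 20 had median changes of 0.07 in KO1 and 0.11 in KO2. In the elongation factor group, which by symbol also holds EEF1E1, 3 of 7 members were higher and 2 lower in KO1, and 2 were higher in KO2. EEF1B2, EEF1D and EEF1E1 were the 3 that rose in KO1, by 0.34, 0.23 and 0.45 on the log2 scale, and their KO2 values of 0.03, 0.09 and 0.10 did not pass. EEF2KMT, a methyltransferase that modifies eEF2, rose in both, by 0.46 and 0.39. EEF1A1, the form used in most cells, was not called in either knockout, with log2 values of 0.16 and -0.01.

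EEF2, which moves the ribosome along the mRNA, fell in KO1, from 1706, 1743 and 1643 CPM to 1365, 1277 and 1407 CPM, and rose slightly in KO2, from 1821, 1894 and 1903 CPM to 1990.0, 2013 and 2021 CPM. The log2 changes were -0.33 (SE 0.05) and 0.10 (SE 0.03), and the KO2 call was lost with no filter on low counts. EIF3G and EIF3K fell in KO1 too, by 0.20 and 0.28 on the log2 scale, and in KO2 EIF3G rose by 0.17 while EIF3K had a log2 value of 0.12 that did not pass. The EIF3G call in KO1 was lost without KO1 replicate 1 or WT1 replicate 2. All 3 genes lie on chromosome 19, whose 1197 tested genes had a median log2 change of -0.38 in KO1, against 0.00 for the 1234 tested in KO2. Within 5 Mb, the medians of the other genes in KO1 were -0.46 near EEF2, -0.25 near EIF3G and -0.51 near EIF3K. The fall of each of the 3 genes was smaller than the median of the chromosome, and the part of that chromosome-wide shift in their values was not tested. The remaining genes lower in KO1 were EEF1A2, EIF4A2 and EIF4EBP2, and those lower in KO2 were EIF3L, EIF4B, EIF3E and EEF2K, the kinase that inactivates eEF2. EEF2K went from 47.8, 46.0 and 49.4 CPM in WT2 to 44.1, 39.4 and 40.1 CPM in KO2 (log2 -0.22, SE 0.06).

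**Figure D3:**
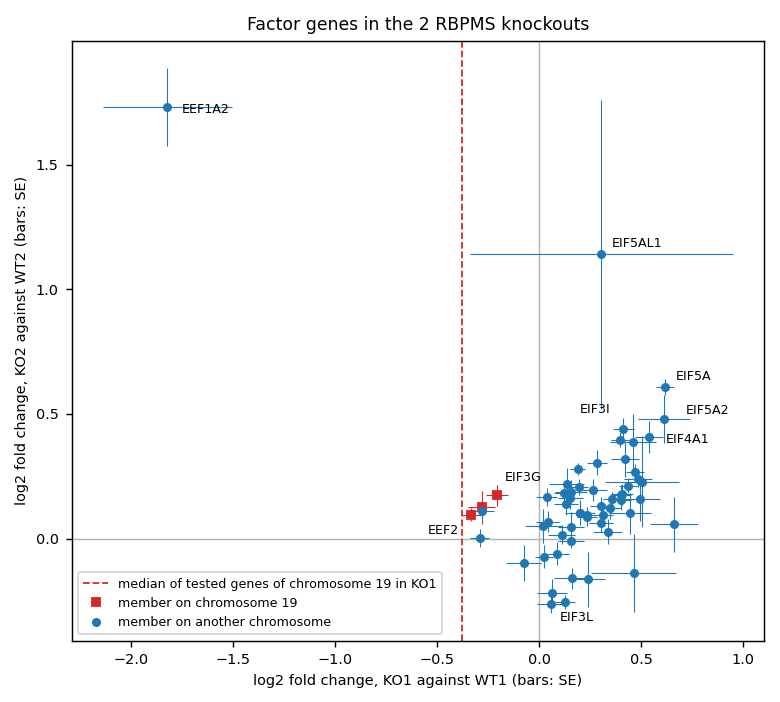
Log2 fold change in KO1 against WT1 (horizontal axis) and in KO2 against WT2 (vertical axis) of the 58 tested members, with bars of 1 SE. Squares are the members on chromosome 19, and the dashed line is the KO1 median of the tested genes of that chromosome, at -0.38. Most members lie above 0 on both axes, and EEF1A2 lies alone at the upper left.

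In the test of the difference itself, KO1 change minus KO2 change, 15 members were higher and 6 lower, where 11.2% of 19189 tested genes were higher and 12.1% lower. At 32 CPM or more, 15 of 46 members were higher and 5 lower, where 16.5% of all genes were higher and 19.5% lower. The 6 that were lower were EEF1A2, EEF2, EIF3K, EIF4A2, EIF3G and EIF4EBP2, of which 3 lie on chromosome 19.

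Overexpression of either ANKRD10 form came with higher levels of part of the factors, and the rises were below 1.5-fold for every called member. With ANKRD10-1, 18 of 58 members were higher and 0 lower than in Vector by edgeR's quasi-likelihood test (2 lower at an unadjusted p under 0.05, and 1 lower by DESeq2), where 3.5% of 20457 genes were higher and 2.81% lower. With ANKRD10-2, 26 were higher and 1 lower, where 10.7% of 20177 genes were higher and 9.25% lower. The median log2 changes were 0.12 and 0.15. Among genes with at least 32 CPM the shares were 9.88% higher and 5.83% lower with ANKRD10-1, and 25.7% higher and 11.7% lower with ANKRD10-2. There 17 of 42 members were higher and 0 lower with ANKRD10-1, and 22 of 42 were higher and 1 lower with ANKRD10-2. The ANKRD10-1 count of 18 rests on single libraries. It was 6 without ANKRD10-1 replicate 1, 8 without ANKRD10-1 replicate 2 and 7 without Vector replicate 2. The 2 comparisons share the Vector libraries.

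EIF1AD, a nuclear relative of eIF1A, had the largest rise in both. It stood at 22.5, 26.3 and 24.9 CPM in Vector, 31.6, 31.1 and 30.5 CPM with ANKRD10-1 and 38.1, 34.6 and 34.0 CPM with ANKRD10-2. The log2 changes against Vector were 0.34 (SE 0.07) and 0.54 (SE 0.07). EIF1, the start codon scanning factor, had 244, 227 and 244 CPM in Vector, 273, 277 and 272 CPM with ANKRD10-1 and 326, 321 and 318 CPM with ANKRD10-2. The 3 groups were separate, and ANKRD10-2 was above ANKRD10-1 by 0.23 on the log2 scale (edgeR adjusted p = 0.00548). In the elongation factor group 4 of 7 members were higher with ANKRD10-1 and 5 of 7 with ANKRD10-2. EEF1B2, the exchange factor of eEF1A, had 300.0, 287 and 305 CPM in Vector, 368, 351 and 377 CPM with ANKRD10-1 and 440.3, 384 and 401 CPM with ANKRD10-2. EEF1A1 had 2357, 2213 and 2381 CPM in Vector, 2725, 2652 and 2539 CPM with ANKRD10-1 and 2753, 2807 and 2829 CPM with ANKRD10-2. The ANKRD10-1 call of EEF1A1 was lost without ANKRD10-1 replicate 1 or 2 or Vector replicate 2. That of EIF1 was lost without ANKRD10-1 replicate 2 or Vector replicate 2. EEF1G and EEF1D, partners of EEF1B2 in the exchange complex, rose by 0.22 and 0.20 on the log2 scale with ANKRD10-1 and by 0.29 and 0.30 with ANKRD10-2. EEF2 had log2 values of 0.15 and 0.11 that did not pass.

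Of the 14 eIF3 genes, 6 were higher with ANKRD10-1 and 7 with ANKRD10-2. EIF3K had 35.6, 35.0 and 39.2 CPM in Vector, 42.9, 42.4 and 43.4 CPM with ANKRD10-1 and 48.8, 43.7 and 45.6 CPM with ANKRD10-2. Its ANKRD10-1 call was lost without ANKRD10-1 replicate 1, 2 or 3 or Vector replicate 1 or 2. EIF3H and EIF3M rose by 0.22 and 0.27 on the log2 scale with ANKRD10-2, and EIF3A and EIF3F by 0.19 and 0.18 with ANKRD10-1. In the joining group, EIF5A went from 92.8, 84.7 and 91.0 CPM in Vector to 116, 105 and 107 CPM with ANKRD10-2 (log2 0.29, SE 0.06). EIF5A2 went from 11.8, 11.6 and 12.03 CPM to 16.3, 15.01 and 15.5 CPM (log2 0.40, SE 0.08). The ANKRD10-2 libraries lay above every Vector library for both genes. EEF1A2, which split the knockouts, had 28.6, 28.1 and 28.6 CPM in Vector, 27.3, 28.8 and 30.2 CPM with ANKRD10-1 and 38.3, 34.2 and 32.5 CPM with ANKRD10-2.

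EIF4A3, the helicase of the exon junction complex, had 72.5, 75.7 and 97.7 CPM in Vector, 101, 98.2 and 100.3 CPM with ANKRD10-1 and 118, 106 and 112 CPM with ANKRD10-2. Its highest Vector library came close to the lowest ANKRD10-1 library, and the ANKRD10-1 call was lost without any 1 of the 3 ANKRD10-1 libraries, without Vector replicate 1 or 2 and by DESeq2. The ANKRD10-2 change was 0.45 on the log2 scale (SE 0.09). EIF4EBP1 rose with ANKRD10-2, from 72.6, 62.9 and 69.7 CPM to 97.0, 90.2 and 89.6 CPM (log2 0.43, SE 0.06), and its smaller change with ANKRD10-1 of 0.20 was lost without any 1 of the 3 ANKRD10-1 libraries, without Vector replicate 2 and with all libraries in 1 fit. EIF4G3, a paralogue of EIF4G1, was the 1 member that fell, from 143, 145 and 134 CPM in Vector to 114, 121 and 123 CPM with ANKRD10-2 (log2 -0.23, SE 0.05). EIF4G1 had a log2 value of 0.10 with ANKRD10-2 (95% interval 0.01 to 0.19) that did not pass. EIF4E rose with ANKRD10-2, from 66.2, 65.3 and 65.8 CPM to 77.5, 72.7 and 79.2 CPM.

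Compared directly, ANKRD10-2 libraries had 6 members higher and 1 lower than ANKRD10-1 libraries, where 4.15% of 20052 genes were higher and 3.1% lower. At 32 CPM or more, 4 of 43 members were higher (9.3%), where 9.57% of all genes were, so the members lay at the background share. The 6 were EIF1, EIF4A2, EIF4EBP1, EIF5A, EIF6 and EEF1A2. EIF6 had 15.2, 14.3 and 13.9 CPM in Vector, 13.5, 13.8 and 14.6 CPM with ANKRD10-1 and 18.5, 16.0 and 18.0 CPM with ANKRD10-2. EIF5 was the 1 that was lower, with 131, 136 and 129 CPM in Vector, 151, 152 and 153 CPM with ANKRD10-1 and 135, 131 and 128 CPM with ANKRD10-2. The count of 7 fell to 2 without ANKRD10-1 replicate 1 or 2 and to 3 without ANKRD10-2 replicate 3.

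The siRNAs against the 2 forms came with different counts, and both are compared with the same siNC libraries. With siANKRD10-1, 7 of 59 tested members were higher and 1 lower than in siNC, where 5.08% of 18785 genes were higher and 5.52% lower. With siANKRD10-2, 7 were higher and 22 lower, where 17.6% of 18924 genes were higher and 18.7% lower. At 32 CPM or more, 6 of 44 members were higher with siANKRD10-1 (13.6%), where 10.2% of all genes were. The median log2 change was 0.06 with siANKRD10-1 and -0.13 with siANKRD10-2. Among genes with at least 32 CPM, 28.8% were higher and 29.5% lower with siANKRD10-2, and there 7 of 44 members were higher and 17 lower. The siANKRD10-1 count of 8 was 1 without siNC replicate 1, 1 without siNC replicate 2, 1 without siANKRD10-1 replicate 1 and 3 without siANKRD10-1 replicate 3. Compared directly, siANKRD10-2 had 8 members higher and 32 lower than siANKRD10-1, where 18.2% of 18832 genes were higher and 18.8% lower. At 32 CPM or more, 8 of 44 members were higher and 25 lower, where 29.4% of all genes were higher and 30% lower.

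The genes of the eIF1 and eIF1A group, which by symbol also holds the nuclear relative EIF1AD, fell together with siANKRD10-2. All 4 tested members of this group were lower. EIF1AX, which encodes eIF1A, had 102, 98.0 and 106 CPM in siNC, 108, 98.1 and 105 CPM with siANKRD10-1 and 54.4, 61.6 and 62.2 CPM with siANKRD10-2. EIF1 had 172, 177 and 196 CPM in siNC, 183, 179 and 178 CPM with siANKRD10-1 and 121, 120.5 and 134 CPM with siANKRD10-2. The siNC and siANKRD10-1 libraries overlapped for both genes and the siANKRD10-2 libraries lay apart. The log2 changes with siANKRD10-2 were -0.78 (SE 0.06, edgeR adjusted p = 1.19e-10) for EIF1AX, -0.53 (SE 0.06, edgeR adjusted p = 7.22e-08) for EIF1, -0.43 (SE 0.08) for EIF1AD and -0.95 (SE 0.14) for EIF1B. EIF1B, a close relative of EIF1 with few reads, had 7.91, 8.72 and 8.50 CPM in siNC and 3.22, 4.38 and 5.34 CPM with siANKRD10-2. EIF1AX and EIF1B each have an antisense row in the tables, and whether the counting used strand is not stated.

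EIF5 fell as strongly, from 326, 323 and 336 CPM in siNC to 213, 207 and 201 CPM with siANKRD10-2 (log2 -0.67, SE 0.05, edgeR adjusted p = 1.38e-10), and stood at 300.5, 310.5 and 305 CPM with siANKRD10-1. EIF5 acts with eIF1 and eIF1A in choosing the start codon. EIF6 fell from 29.3, 28.2 and 27.5 CPM to 23.6, 22.0 and 20.6 CPM. In the cap group 6 of 11 members were lower and 2 higher. EIF4A3 fell from 141, 142 and 137 CPM to 104, 102 and 111 CPM, and EIF4E fell from 111, 121 and 126 CPM to 95.8, 94.9 and 99.3 CPM. The other 3 that fell in this group were EIF4E2, EIF4G2 and EIF4H, by 0.26, 0.28 and 0.28 on the log2 scale, besides EIF4A1. EIF4G1 had a log2 value of -0.10 (95% interval -0.20 to 0.00) that did not pass. EEF1A1 fell from 2344, 2048 and 2597 CPM to 1890.2, 1949 and 1903 CPM, with the siNC libraries spread widely. EEF2K fell from 19.3, 16.6 and 17.3 CPM to 14.2, 14.5 and 15.8 CPM. This EEF2K call was lost without siNC replicate 1 or siANKRD10-2 replicate 1 or 2. Of the eIF2 group, EIF2S3 and EIF2A fell by 0.32 and 0.26 on the log2 scale, and EIF2B1 of eIF2B by 0.29, while EIF2S1 had 127, 132 and 146 CPM in siNC and 135, 134 and 131 CPM with siANKRD10-2.

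**Figure D4:**
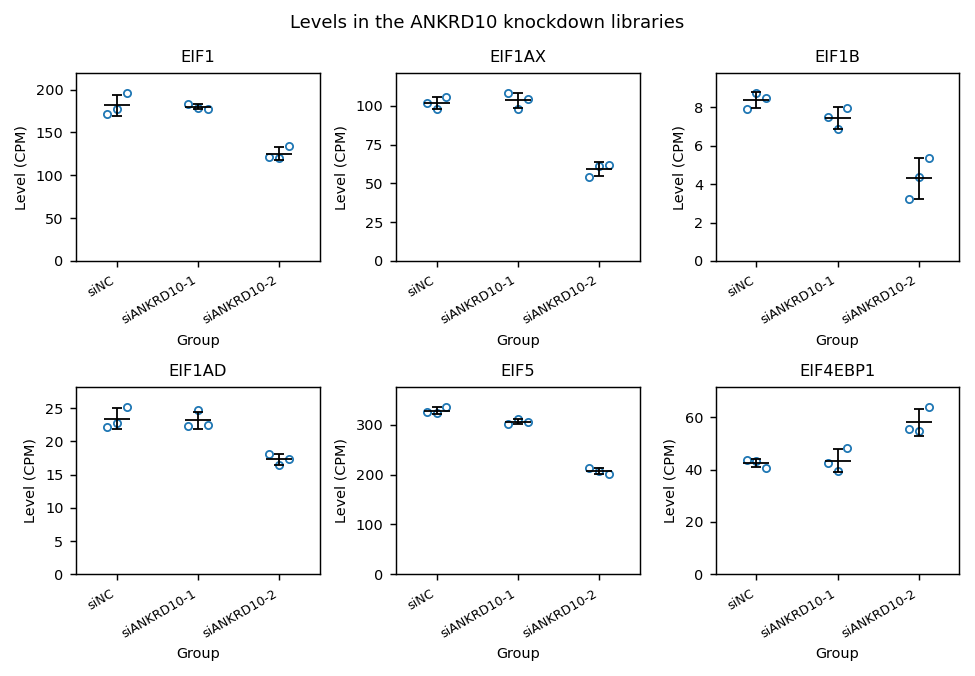
Levels in CPM (vertical axes, from 0) of 6 factor genes in the siNC, siANKRD10-1 and siANKRD10-2 groups. Circles are libraries, and bars give the mean ± SD of 3 libraries. EIF1, EIF1AX, EIF1B, EIF1AD and EIF5 were lower with siANKRD10-2 than in every siNC library, and EIF4EBP1 was higher.

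Other members rose with siANKRD10-2. EIF4EBP1 went from 43.6, 43.4 and 40.7 CPM in siNC to 55.5, 54.8 and 64.0 CPM (log2 0.45, SE 0.06), so it was higher with both ANKRD10-2 overexpression and siANKRD10-2. EIF5B went from 574, 578 and 615 CPM to 814, 833 and 661 CPM, with the lowest treated library still above the controls. The eIF3 group was split, with 3 members higher (EIF3A, EIF3C and EIF3CL) and 3 lower (EIF3E, EIF3H and EIF3M). EIF3C rose from 360.1, 365 and 346 CPM to 538, 479 and 519 CPM and EIF3A, the largest subunit, rose by 0.29 on the log2 scale, while the subunits EIF3H and EIF3M fell by 0.38 and 0.35. EIF3E fell from 121, 124 and 138 CPM to 91.8, 87.1 and 91.3 CPM. EIF4A2 rose by 0.16 while EIF4A1 fell by 0.20, and EIF4G3 rose by 0.22.

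With siANKRD10-1 the 7 members that were higher were EIF3B, EIF3D, EIF3G, EIF3I, EIF3K, EEF1B2 and EEF1A2, of which 5 belong to eIF3. EIF3D had 163, 157 and 169 CPM in siNC and 199, 201 and 192 CPM with siANKRD10-1 (log2 0.28, SE 0.05). EIF3I had 43.2, 48.3 and 51.5 CPM in siNC and 59.0, 53.6 and 60.9 CPM with siANKRD10-1, a call lost without siNC replicate 1 or 2 or siANKRD10-1 replicate 1 or 3. The calls of EIF3G, EIF3K and EEF1B2 were each lost on leaving out any 1 of the same libraries. EIF5A2 was the 1 that fell, from 5.84, 5.68 and 4.91 CPM to 3.61, 4.20 and 3.36 CPM (log2 -0.56, SE 0.14), a call lost without siNC replicate 1 or 2 or siANKRD10-1 replicate 1 or 3. EEF1A2 had 12.4, 12.7 and 12.4 CPM in siNC, 15.3, 14.8 and 15.8 CPM with siANKRD10-1 and 10.7, 11.3 and 9.15 CPM with siANKRD10-2, and both of its calls were lost under 4 or more alternatives. With siANKRD10-2, EIF5A2 had 4.45, 3.41 and 5.53 CPM, which overlapped siNC (log2 -0.29, 95% interval -0.61 to 0.03).

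The design asks which genes move one way on loss of RBPMS and gain of ANKRD10-2 and the other way on loss of ANKRD10-2. Of 58 members, 13 were higher with ANKRD10-2 and lower with siANKRD10-2, as were 4.04% of 18279 genes tested in both, and 3 (EIF3C, EIF4A2 and EIF4EBP1) were higher in both, as were 1.99%. Of these, the ANKRD10-2 calls of EIF3C and EIF4A2 were each lost without ANKRD10-2 replicate 2 or 3 or Vector replicate 2 or 3, and the siANKRD10-2 call of EIF4A2 was lost without siNC replicate 1 or siANKRD10-2 replicate 3. Counting the knockouts as well, 5 of 57 members were higher in KO1, in KO2 and with ANKRD10-2 and lower with siANKRD10-2, as were 1.59% of 13294 genes. These were EIF1, EIF2A, EIF4A1, EIF5A and EIF6. The shares of these patterns are over genes at all levels and were not computed at 32 CPM or more. At that level 25.7% of genes were higher with ANKRD10-2 and 29.5% lower with siANKRD10-2, against 10.7% and 18.7% at all levels. EIF2A had 137, 126 and 139 CPM in Vector and 190.4, 167 and 165 CPM with ANKRD10-2, and 88.3, 92.0 and 104 CPM in siNC and 79.1, 81.6 and 76.9 CPM with siANKRD10-2. EIF4A1 had 173, 164 and 164 CPM in Vector and 184, 204 and 216 CPM with ANKRD10-2, and 295, 303 and 319 CPM in siNC and 263, 260.2 and 273 CPM with siANKRD10-2. The treated and control libraries did not overlap in these 4 pairs, and the EIF4A1 call with ANKRD10-2 was lost with all libraries of the table in 1 fit. EIF5A had 161, 167 and 169 CPM in siNC and 151, 149.6 and 153 CPM with siANKRD10-2, a small difference (log2 -0.13, edgeR adjusted p = 0.0483) that was lost without siNC replicate 2 or 3, without any 1 of the 3 siANKRD10-2 libraries and under 4 other settings. With ANKRD10-1 and with siANKRD10-1, EIF5A had log2 values of 0.09 and 0.14 that did not pass. The EIF6 call with ANKRD10-2 was lost without ANKRD10-2 replicate 1 or 3 or Vector replicate 2 or 3.

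**Figure D5:**
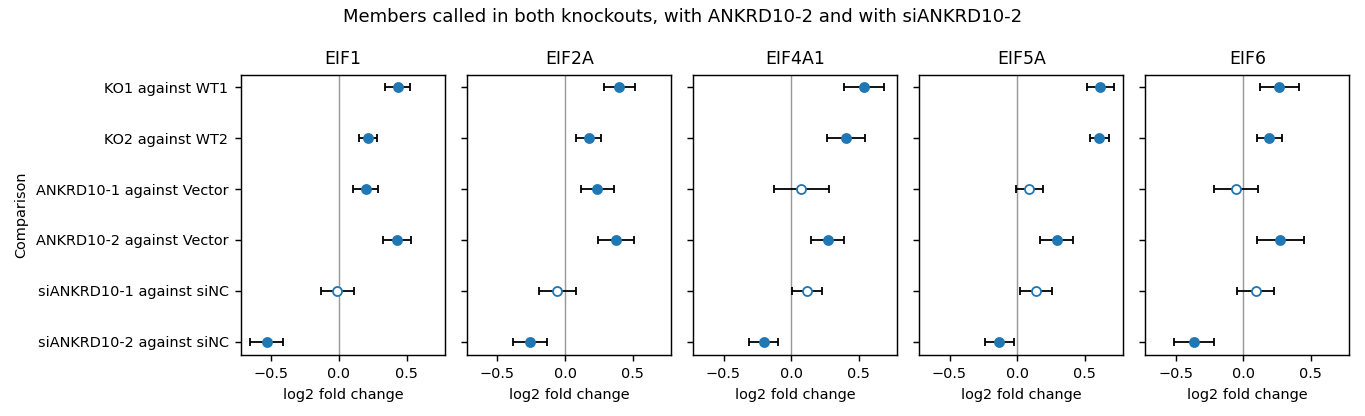
Log2 fold changes (horizontal axes) of EIF1, EIF2A, EIF4A1, EIF5A and EIF6 in the 6 comparisons with a control group, with 95% intervals. Filled points passed the test and open points did not. All 5 lie above 0 in KO1, KO2 and with ANKRD10-2, and below 0 with siANKRD10-2.

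The 5 tested members that passed in none of the 6 comparisons with a control were EEF1AKMT1, EIF4E3, EIF4EBP3, EIF4ENIF1 and EIF5AL1, of which EIF4EBP3 and EIF5AL1 had few reads.

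The other genes of the pathway were counted from a list of 32 genes, such as the poly(A)-binding proteins, the eIF2 kinases and the release factors, all of which were tested. Of these, 13 were higher and 4 lower in KO1, 16 and 6 in KO2, 6 and 1 with ANKRD10-1, 12 and 3 with ANKRD10-2, 3 and 3 with siANKRD10-1, and 8 and 9 with siANKRD10-2. The shares over all tested genes were 17.9% higher and 18.2% lower in KO1, 19.3% and 19.2% in KO2, 3.5% and 2.81% with ANKRD10-1, 10.7% and 9.25% with ANKRD10-2, 5.08% and 5.52% with siANKRD10-1, and 17.6% and 18.7% with siANKRD10-2. Among genes with at least 32 CPM the shares were larger, at 28.8% higher and 29.5% lower with siANKRD10-2. The list was not counted at that level. PABPC1, the main poly(A)-binding protein, rose by 0.31 in KO1, 0.32 in KO2 and 0.39 with ANKRD10-2 on the log2 scale and fell by 0.45 with siANKRD10-2. EIF2AK2, the double-stranded RNA-activated kinase of eIF2, fell by 1.25 with ANKRD10-1 and by 1.33 with ANKRD10-2. It also passed in KO1 (log2 0.18) and with siANKRD10-2 (log2 -0.27), so it was lower with both gain and loss of ANKRD10-2. The translation repressor PDCD4, which holds back eIF4A, fell by 0.26 in KO1 and 0.65 in KO2 and was higher by 0.16 with ANKRD10-2 and by 0.20 with siANKRD10-2. For reference, MYC itself had log2 changes of 0.42 in KO1, 0.17 in KO2, 0.55 with ANKRD10-2 and -0.60 with siANKRD10-2, each with an edgeR adjusted p under the threshold, and values of 0.16 with ANKRD10-1 and 0.08 with siANKRD10-1 that did not pass.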

How the data were processed

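RNA-seq of 30 libraries of 5637 cells was deposited by the authors as 3 tables of raw read counts per gene. The submitters' processing notes name Trimmomatic 0.36, featureCounts of Subread 1.5.1 and GRCh38, while the study's methods name HISAT2 and StringTie, and whether counting used strand is not given in the sources used here. Values were not normalised before deposit, and 0 columns lacked a sample.

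The members, role groups and lists were chosen with earlier results of these data known. Groups came from the labels. Genes were filtered with filterByExpr (minimum count 10, minimum total 15), scaled by TMM and tested with edgeR 4.0.16 (quasi-likelihood F-test, R 4.3.3), using the libraries of the compared groups, or all 12 knockout libraries for the difference between knockouts. P-values were adjusted by Benjamini-Hochberg over all genes tested, with a threshold of 0.05, and log2 fold changes used a prior count of 0.125. The procedure was tested on simulated data. Values per library are given for the 3 largest called rises and falls of each comparison with a control, for up to 5 members changed alike in a pair of comparisons, and for 13 members taken whatever their change, and other members were named after their values were seen. CPM per kilobase used the union exon length of the overexpression table. The description of genes with at least 32 CPM was chosen after seeing the data. Alternatives were RLE size factors, DESeq2 1.42.0, no filter, all libraries of a table in 1 fit, all 6 WT libraries as control, the replicate number as a block, and leaving out each library. Promoter windows came from RefSeq (GRCh38.p14). Library totals of 28511029 to 69723937 counts set the precision, which is lowest for members of few reads.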

Additional observations from a re-analysis of the deposited data

Results flagged for a closer look

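A difference of effect between groups under the same kind of contrast was picked out where the test of the difference itself passed and reached 0.5 on the log2 scale in a named member. Between the knockouts, KO1 change minus KO2 change, this held for EEF1A2 (-3.55) and EIF3C (0.60), the second of which has a near-identical copy. Between the siRNAs, siANKRD10-2 minus siANKRD10-1, it held for EIF1AX (-0.80), EIF1B (-0.78), EIF3E (-0.60), EIF5 (-0.56), EEF1A2 (-0.56), EIF1 (-0.52) and EIF4A3 (-0.51). RBPMS itself differed by 0.14 on the log2 scale between the siRNAs (SE 0.13, edgeR adjusted p = 0.421), a difference that did not pass. Groups held 3 libraries, too few for a check of single outlying libraries.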

How the results depend on the processing

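Of 106 calls of named members, 76 were kept under every alternative run and 30 were lost under at least 1, and none changed direction. Leaving out 1 library at a time, the number of members called ran from 34 to 37 in KO1, 27 to 35 in KO2, 6 to 18 with ANKRD10-1, 22 to 26 with ANKRD10-2, 1 to 11 with siANKRD10-1, 27 to 29 with siANKRD10-2, 14 to 25 for KO1 minus KO2, 2 to 9 for ANKRD10-2 against ANKRD10-1 and 33 to 41 for siANKRD10-2 against siANKRD10-1. Under the other settings these counts stayed within 1.5 times the values of the report. Libraries of different groups with the same replicate number did not deviate together (correlations of -0.0329 to 0.0786 over the 3 tables), so they share only a number. With the replicate block the counts were 40 in KO1, 35 in KO2, 17 with ANKRD10-1, 30 with ANKRD10-2, 12 with siANKRD10-1, 28 with siANKRD10-2, 24 for KO1 minus KO2, 7 for ANKRD10-2 against ANKRD10-1 and 37 for siANKRD10-2 against siANKRD10-1. The block lost 2 calls of named members, EIF4EBP1 with ANKRD10-1 and EIF5A with siANKRD10-2. Members of few reads, such as EIF1B, EIF5A2 and EEF1A2, carry the widest errors.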
